A study of Mus musculus with 25 samples.

Results

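Akap12, Ptp4a3, Ppp2r2b, Thbs1, Crip2, Pmp22, Cbr1 and Pmaip1 are 8 of the 24984 genes in the count table, and they were chosen by their measured fall in culture, from BMEL WT to RasLOW to RasHIGH cells. The levels of these genes in tumour cells, and in the stromal cells beside them, are described here. The study sequenced mRNA of 25 libraries, 9 from cultures and 16 from cells sorted out of the liver and peritoneal tumours of 4 mice. BMEL are bipotential progenitors of hepatocytes and cholangiocytes, a clonal line of mouse embryonic liver (C57BL/6 x C3H), grown exponentially on collagen.

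The 3 BMEL WT cultures carried, by their labels, an empty vector. RasLOW and RasHIGH cells (3 cultures each) carried human H-Ras G12V on a bicistronic vector with Venus or mCherry and were separated by fluorescence, so each remained a mixed population and their Ras levels overlapped. Tumour cells (4 libraries per site) were sorted as fluorescent cells from dissociated tumours, and the labels do not say which Ras population had been injected. Stromal cells (4 libraries per site) are the cells without fluorescence of the same tumours, so they hold any tumour cell that had lost or silenced the reporter. The hosts were athymic nude mice, which lack mature T cells and keep NK cells and other innate cells. The cells were placed in the liver, and the peritoneal tumours grew outside it in the same animals.

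Oncogenic Ras signals through Raf, Mek and Erk and changes transcription partly through Ets and AP-1 factors. Genes it switches off in epithelial cells often restrain growth, promote death or shape adhesion and matrix. Among the 8 genes, Akap12 encodes a scaffold that ties protein kinase A and C to the membrane, Ptp4a3 the phosphatase PRL-3, and Ppp2r2b a regulatory B subunit of the phosphatase PP2A. Pmaip1 encodes Noxa, a BH3-only protein that binds Mcl1 and promotes apoptosis. Thbs1 encodes thrombospondin-1, a secreted matrix glycoprotein, Pmp22 a tetraspan membrane protein of myelin and epithelia, Crip2 a LIM domain protein, and Cbr1 a carbonyl reductase.

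Total counts per library ran from 20818989 to 51241336, and 3 counts corresponded to between 0.0585 and 0.144 CPM (counts scaled to a common library size), a limit that covers counting error only. Keratins 8, 18 and 19 and Sox9 stood high in every culture and tumour cell library, where 5 epithelial markers summed to between 6609 and 10622 CPM, although Epcam was near 0. In stroma the same markers still summed to between 583 and 1455 CPM. The row of mouse Hras did not follow the labels (79.9 ± 7.93 CPM in BMEL WT and 66.9 ± 15.2 CPM in RasHIGH, SD, n = 3), and as the transgene is human this row does not check them. One library stood apart, the peritoneal tumour cells of mouse 1: its 6 fibroblast markers summed to 1440 CPM against 209 to 318 CPM in the other 3, and its 6 macrophage markers to 227 against 21.7 to 34.6 CPM.

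Sequence at the start sites of these genes is shown first, because Ets and AP-1 are the factors through which Erk acts. RefSeq promoter windows of 300 bases around a start, on GRCm38.p6, were searched for 3 of the members, Cbr1, Crip2 and Pmp22. Akap12, Ptp4a3, Thbs1, Ppp2r2b and Pmaip1 are named only. These letters were searched on both strands: AP-1 as TGACTCA, Ets as CCGGAA and the GC box as GGGCGG. The 3 genes have 7 windows, of which 2 hold an Ets match, 1 of Crip2 and 1 of Pmp22. Those 2 windows were chosen for print after the search because they hold the match, with 1 for Cbr1, all on the plus strand and with matches in capitals: Cbr1 at chr16:93607587-93607886, Crip2 at chr12:113139986-113140285 and Pmp22 at chr11:63131207-63131506.
Cbr1: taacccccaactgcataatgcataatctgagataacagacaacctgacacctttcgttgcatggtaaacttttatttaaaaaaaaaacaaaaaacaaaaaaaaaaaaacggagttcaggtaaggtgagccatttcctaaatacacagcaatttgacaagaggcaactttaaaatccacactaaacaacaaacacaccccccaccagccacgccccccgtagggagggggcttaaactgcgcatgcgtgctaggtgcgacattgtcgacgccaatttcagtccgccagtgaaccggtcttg
Crip2: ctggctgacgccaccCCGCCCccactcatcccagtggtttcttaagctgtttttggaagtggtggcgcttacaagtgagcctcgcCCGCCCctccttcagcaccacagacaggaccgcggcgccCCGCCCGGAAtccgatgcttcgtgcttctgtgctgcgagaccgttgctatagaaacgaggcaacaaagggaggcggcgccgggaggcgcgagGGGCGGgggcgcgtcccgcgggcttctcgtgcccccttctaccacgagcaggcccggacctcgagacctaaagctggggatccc
Pmp22: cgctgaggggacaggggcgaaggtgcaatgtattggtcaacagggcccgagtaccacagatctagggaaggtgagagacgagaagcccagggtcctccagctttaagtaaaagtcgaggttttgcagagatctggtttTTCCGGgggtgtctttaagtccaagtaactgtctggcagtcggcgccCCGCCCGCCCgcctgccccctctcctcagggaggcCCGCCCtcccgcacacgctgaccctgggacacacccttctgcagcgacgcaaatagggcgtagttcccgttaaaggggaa
The Cbr1 window held none of these letters. Crip2 held 4 GC boxes and 1 Ets match, which overlaps a GC box in the longest run of capitals, and Pmp22 held 3 GC boxes, of which 2 overlap, and 1 Ets match. No AP-1 match lay in any of the 7 windows of these 3 genes. Over all 32851 windows of the same length the shares were 35.7% for the GC box, 14.9% for Ets and 5.2% for AP-1. A match is a description of letters and not a site of binding.

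In culture, 43 of 11750 genes tested (0.366%) passed the threshold downwards in all 3 comparisons, and the 8 genes are among them. That threshold, set by the study, asks for a log2 change of more than 1.5 together with a p-value below 0.01, which was taken here as the unadjusted one. The following culture values chose the genes and are given without a test. Akap12 had 428, 357 and 200 CPM in the BMEL WT cultures, 4.58, 14.3 and 6.98 CPM in RasLOW and 0.637, 0.77 and 1.17 CPM in RasHIGH. Ptp4a3 went from 105, 134 and 137 CPM to 7.63, 13 and 3.03 CPM and then to 0.487, 0.642 and 0.314 CPM, in the same order. The 3 populations did not overlap for either gene, which the choice of genes fixes.

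The fall was divided unevenly between the 2 steps. On the log2 scale, RasLOW cells had already covered 65.7% of the whole fall for Thbs1, 61.1% for Akap12 and 60.2% for Crip2, but 35.7% for Ppp2r2b. For Pmp22, Ptp4a3, Pmaip1 and Cbr1 the share was between 46.8% and 51.5%. Ppp2r2b ended at 4 counts in each RasHIGH library, 0.15 to 0.179 CPM, so its last step was measured near the limit of detection. Crip2 had the smallest single step of the 8, 1.62 on the log2 scale, and just outside the threshold was Unc13d, with 1.48.

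To place the tumour cells, each library was given a position on the culture scale of each gene, from 0 at the mean of BMEL WT to 1 at the mean of RasHIGH, on log2(CPM + 0.25). The 8 genes did not share one position. Akap12, Thbs1 and Pmaip1 lay between BMEL WT and RasHIGH, Ptp4a3 and Cbr1 lay around RasHIGH, and Crip2, Pmp22 and Ppp2r2b lay past it in liver tumours. The median over the 8 genes was 1.01 in liver and 0.92 in peritoneal tumour cells, against 0.54 in RasLOW. For the other 35 genes that fell in all 3 culture comparisons the medians were 0.84 and 0.82. Every RasLOW and RasHIGH library was in lane 4, and the sorted libraries were in lanes 1 to 3. Since cultures and sorted cells differ in lane and handling as well as in growth, what sets a position cannot be told apart. In bulk samples fewer cells that express a gene cannot be told from less RNA per cell.

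**Figure D1:**
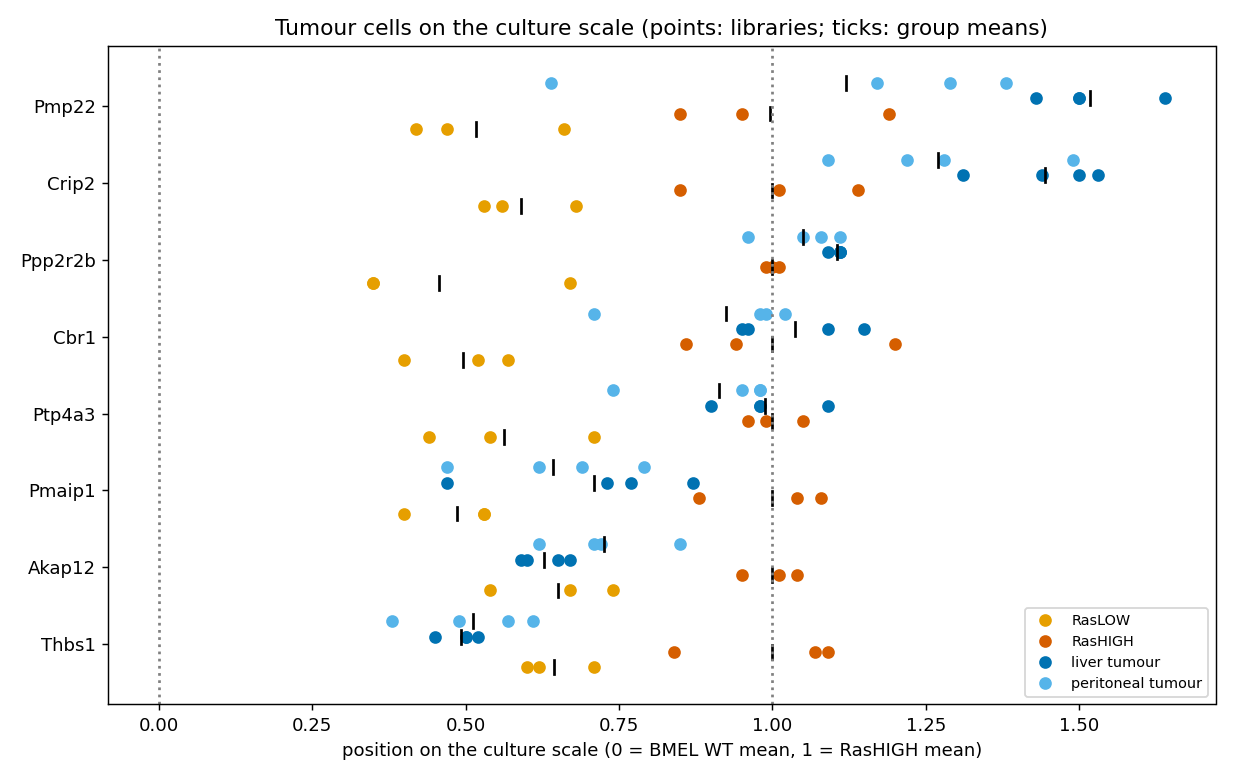
Position of each RasLOW, RasHIGH and tumour cell library on the culture scale of each gene (x axis, 0 = BMEL WT mean and 1 = RasHIGH mean on log2(CPM + 0.25), no unit), with 1 row per gene, ordered by the mean of liver tumour cells. Points are libraries and short black lines group means: Thbs1, Akap12 and Pmaip1 stay short of 1 in all 8 tumour libraries, while Pmp22 and Crip2 lie at 1.43 and 1.31 or more in the 4 liver tumours.

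Thbs1 lay nearest to BMEL WT on this scale at both sites. It had 59.2, 70.4, 59.9 and 55.9 CPM in the liver tumour cells of mice 1 to 4 and 62.5, 91.8, 45.7 and 38.4 CPM in their peritoneal tumour cells. All 4 liver libraries and 3 of the 4 peritoneal ones lay above each RasLOW culture (27.2, 38.3 and 40.6 CPM). The mean in tumour cells was 6.28 times (liver) and 6.1 times (peritoneum) that of RasHIGH cells, and 0.149 and 0.144 times that of BMEL WT.

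Akap12 kept to the RasLOW range. Liver tumour cells had 10.9, 7.78, 6.92 and 9.93 CPM and peritoneal tumour cells 9.14, 4.92, 5.22 and 2.24 CPM. All 4 liver libraries and 3 of 4 peritoneal ones fell within the RasLOW cultures, and all 8 lay above RasHIGH. Its mean was thus 10.4 times that of RasHIGH in liver and 6.27 times in peritoneal tumours.

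Noxa, encoded by Pmaip1, varied more between mice. Its level was 20.2, 9.04, 7.91 and 5.89 CPM in liver and 10.3, 7.48, 12.7 and 20.1 CPM in peritoneal tumour cells. At each site 1 library reached the RasLOW range (16.7 to 24.8 CPM) and 3 lay between it and RasHIGH (2.96 to 5.56 CPM), but the high library came from mouse 1 in the liver and from mouse 4 in the peritoneum.

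Ptp4a3 stayed around the RasHIGH level, with 0.563, 0.53, 0.21 and 0.923 CPM in liver and 2.55, 0.54, 0.667 and 0.551 CPM in peritoneal tumour cells. Cbr1 did so too, with 0.158, 0.39, 0.36 and 0.0955 CPM in liver and 1.12, 0.324, 0.305 and 0.257 CPM in the peritoneum, against 0.6, 0.0428 and 0.404 CPM in RasHIGH. For both genes the high peritoneal value is that of mouse 1, the library with the most fibroblast and macrophage RNA. The counts behind these levels were low, 3 to 14 per liver library for Cbr1 and 7 to 29 for Ptp4a3.

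Crip2 and Pmp22 lay below the RasHIGH cultures. Crip2 had 4.23, 3.88, 5.03 and 7.26 CPM in liver and 14.1, 9.51, 7.97 and 4.3 CPM in peritoneal tumour cells, while RasHIGH had 11.9, 17.5 and 27.9 CPM. Pmp22 had 0.09, 0.279, 0.419 and 0.286 CPM in liver and 7.43, 0.513, 1.24 and 0.772 CPM in peritoneal tumour cells, while RasHIGH had 1.12, 2.65 and 3.68 CPM. Every liver library of both genes was below every RasHIGH culture, and in the peritoneum 3 of 4 were for Crip2 and 2 of 4 for Pmp22. In liver tumour cells the mean of Crip2 was 0.267 times and that of Pmp22 0.108 times the RasHIGH mean.

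The B subunit gene Ppp2r2b was at the edge of detection. In the liver tumour cells of mice 1, 3 and 4 it had no count, which allows up to 3 counts, and in those of mouse 2 it had 1 count (0.0279 CPM). Peritoneal tumour cells had 8, 0, 2 and 2 counts, or 0.249, 0, 0.0381 and 0.0735 CPM, and RasHIGH cells 4 counts per library. At this depth a difference from RasHIGH was not measured with any precision.

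Counted over libraries, 3 members (Ppp2r2b, Crip2 and Pmp22) had all 4 liver tumour libraries below all 3 RasHIGH libraries, as had 26.1% of all genes, and 3 (Akap12, Thbs1 and Pmaip1) had all 4 above them, as had 20.4%. In peritoneal tumour cells no member had all 4 below (24% of all genes) and the same 3 had all 4 above (18.9%). The RasHIGH levels belong to the values that chose the genes, and the RasHIGH libraries shared no lane with the tumour libraries, so these counts are a description.

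**Figure D2:**
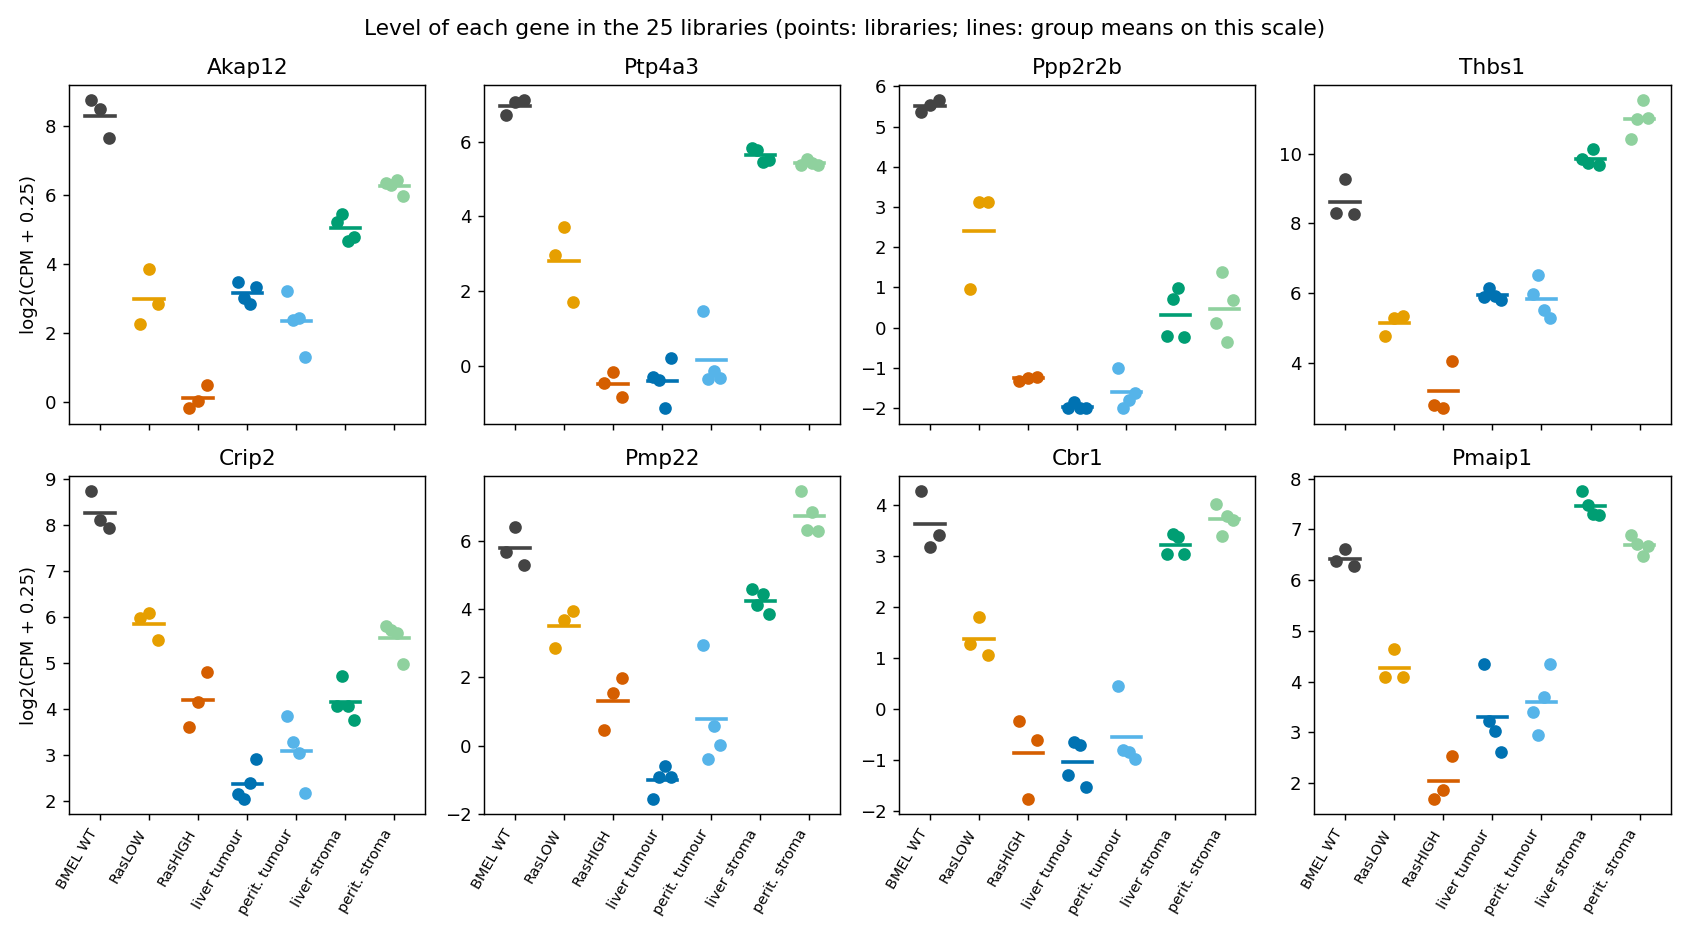
Level of each gene (y axis, log2(CPM + 0.25), its own range in each panel) in the 25 libraries, with 1 panel per gene and 1 column per group on the x axis. Points are libraries and lines group means on this scale: stroma stands above the tumour cells of the same site in all 8 panels, and for Thbs1 also above every BMEL WT culture.

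Liver and peritoneal tumour cells were next compared in the same 4 mice, a comparison that had no part in the choice of genes. With the edgeR quasi-likelihood test, none of the 7 members tested passed an adjusted p-value of 0.05, against 3.2% of 13074 genes. Ppp2r2b had too few counts to be tested. DESeq2 called 1 member, Pmp22 (adjusted p = 0.0017), and 8.77% of the same genes. The threshold the study used for tumours is a log2 change of more than 1 and a p-value below 0.05. With that p-value again taken as unadjusted, 1 member was lower in the liver, Pmp22, as were 2.37% of all genes. Pmp22 had 4, 10, 14 and 9 counts in liver tumour cells and passed the filter on low counts (minimum count 10) through the peritoneal libraries. Only a lower call in the liver was thus open to it.

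The site difference of Pmp22 had a log2 fold change of -3.23 ± 0.88 (SE, edgeR adjusted p = 0.0755). Its level was lower in the liver in 4 of 4 mice, by -4.50, -0.53, -1.15 and -0.93 on log2(CPM + 0.25), so that mouse 1 stood far from the others. Without the peritoneal library of mouse 1 the log2 fold change was -1.68 ± 0.49 (SE, adjusted p = 0.0653), and with the mouse as a block it was -2.32 ± 0.91 (SE, adjusted p = 0.243). In that library the fibroblast markers were also high, and liver stroma and peritoneal stroma hold far more Pmp22 than tumour cells, as given further on. The part of stromal RNA in the difference was not tested.

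Crip2 had a log2 fold change of -0.82 ± 0.33 (SE, edgeR adjusted p = 0.194), and it was lower in the liver in 3 of 4 mice. Akap12 was higher in the liver in 4 of 4 mice, by 0.25 to 2.03 on log2(CPM + 0.25), with a log2 fold change of 0.72 ± 0.34 (SE, adjusted p = 0.277). Without the peritoneal library of mouse 1 that value was 1.10 ± 0.27 (SE, adjusted p = 0.0395), so the call for Akap12 rested on whether this library was included. Thbs1 showed almost the same level at both sites, with a log2 fold change of 0.04 ± 0.23 (SE, adjusted p = 0.941).

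Lane and mouse cannot be told apart in these values. Among the sorted libraries lane 3 held only mouse 4, and the 1 peritoneal tumour library of lane 1 was that of mouse 1. Within the lanes named in the labels, the difference of Pmp22 was -4.18 in lane 1, -0.67 in lane 2 and -0.93 in lane 3, and that of Akap12 was 0.01, 0.43 and 2.03, with 1 or 2 libraries per site in each lane. The sign was the same in every lane for both genes, and the size was not.

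Stromal cells expressed all 8 genes above the tumour cells of the same site. At each site 8 of 8 members were called lower in tumour cells by edgeR, against 39.4% of 14620 genes in liver and 37.1% of 14584 in peritoneal tumours, and the tumour and stromal libraries did not overlap for any of them. The median log2 fold change over the 8 genes was -4.60 in liver and -4.19 in peritoneal tumours, and over all genes 0.00 and 0.07. The genes are low in Ras-transformed BMEL cells by choice, so a gap to other cell types is not independent of that choice. In liver tumour cells Ppp2r2b (0 to 1 counts), Cbr1 (3 to 14), Pmp22 (4 to 14) and Ptp4a3 (7 to 29) had few counts. They passed the filter on low counts only through stroma, so the only call open to them was lower. In the peritoneum the same held for Ppp2r2b (0 to 8 counts) and Cbr1 (7 to 36).

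Thbs1 had 909, 841, 1125 and 817 CPM in liver stroma and 1375, 2013, 2947 and 2055 CPM in peritoneal stroma. These are 2.24 and 5.08 times the BMEL WT mean. Tumour cells were lower by a log2 fold change of -3.90 ± 0.13 in liver (SE, edgeR adjusted p = 1.27e-10) and -5.04 ± 0.36 in peritoneum (SE, adjusted p = 5.58e-06). Thrombospondin-1 is made by platelets, macrophages and fibroblasts, among others.

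Pmaip1 was also higher in stroma, but in the liver more than in the peritoneum, the reverse of Thbs1. Liver stroma had 216, 178, 159 and 156 CPM, above the BMEL WT cultures (76.9 to 98 CPM), and peritoneal stroma had between 88.7 and 119 CPM and overlapped them. Tumour cells were lower by -4.02 ± 0.33 in liver (SE, edgeR adjusted p = 3.43e-07) and by -2.94 ± 0.29 in peritoneum (SE, adjusted p = 2.58e-05).

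Ptp4a3 reached 57, 54.2, 43.8 and 45.6 CPM in liver stroma and 41.3, 45.7, 43.1 and 41 CPM in peritoneal stroma, the groups with the smallest coefficient of variation of the 8 genes at each site. Its liver tumour cells were lower by -6.49 ± 0.26 (SE, edgeR adjusted p = 6.05e-10) and its peritoneal ones by -5.23 ± 0.50 (SE, adjusted p = 2.33e-05). Pmp22 differed by a similar amount, -6.18 ± 0.32 in liver (SE, adjusted p = 5.17e-09) and -5.41 ± 0.85 in peritoneum (SE, adjusted p = 4.07e-04). For Cbr1 the values were -5.17 ± 0.33 and -4.63 ± 0.47 (SE).

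The smallest gaps were those of Crip2 and Akap12 in liver tumours. Crip2 had 16.5, 26.3, 16.5 and 13.3 CPM in liver stroma, the range of the RasHIGH cultures, and tumour cells were lower by -1.83 ± 0.24 (SE, edgeR adjusted p = 2.65e-05). Akap12 had 37.3, 43.7, 25 and 27.3 CPM there, and tumour cells were lower by -1.90 ± 0.20 (SE, adjusted p = 3.78e-06). In peritoneal tumours the gaps were -2.31 ± 0.34 for Crip2 and -3.73 ± 0.37 for Akap12 (SE). Ppp2r2b was scarce in stroma as well, between 0.526 and 2.38 CPM over its 8 libraries. The 1 count in liver tumour cells against 127 in liver stroma is 0.647% of the stromal level, with an exact 95% interval for counting error from 0.0163% to 3.67%.

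Levels between genes were compared per length, as CPM per kilobase of exon on mm9. In liver stroma Thbs1 came first with a mean of 152, followed by Pmaip1 with 67, Crip2 with 12.6, Ptp4a3 with 10.9, Pmp22 with 8.13, Cbr1 with 7.4, Akap12 with 5.34 and Ppp2r2b with 0.272. Peritoneal stroma gave another order below Thbs1 (345), with Pmp22 at 47.4, Pmaip1 at 39.2 and Crip2 at 33.1. In liver tumour cells Thbs1 (10.1), Pmaip1 (4.06), Crip2 (3.55) and Akap12 (1.42) stood above the other 4 genes, each at 0.203 or less.

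How much stromal RNA the sorted tumour cells held bears on levels this low. As a percent of the stromal level in the same tumour, the marker sums in liver tumour cells were 0.48% to 1.48% for fibroblasts, 0.501% to 0.83% for macrophages and 1.39% to 2.25% for leukocytes, with no marker of the 3 lists at 0 in all 4 libraries. The leukocyte share was carried by Cd53, which averaged 59.8 CPM in liver tumour cells and 9.59 CPM in RasHIGH cultures, and without Cd53 it was 0.176% to 0.315%. In the RasHIGH cultures the fibroblast sum was between 0.984 and 1.35 CPM, and in liver tumour cells between 39.5 and 60.2 CPM. The endothelial sum reached 12.8% to 42.9%, and this too was carried by 1 gene, Cdh5, which stood at 125 CPM in liver tumour cells, 177 CPM in liver stroma and 8.49 CPM in RasHIGH. Without Cdh5 the endothelial share was 0.617% to 1.1%. Mural and smooth muscle markers had 3.54% to 9.89%, with Rgs5 alone at 42.7%, and platelet markers 3.31% to 5.02%, a sum in which Itga2b (1.66 CPM in liver tumour cells) was also present in BMEL WT (1.79 CPM). Hepatocyte markers had 10.9% to 54.7%, from sums of 8.51 to 44.2 CPM in liver tumour cells and 24.6 to 210 CPM in liver stroma. The same sum was 0.897 to 2.55 CPM in RasHIGH and 14.1 to 55 CPM in BMEL WT. The lists without Cd53 and Cdh5 were formed after the values were seen.

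Set beside these, the members ranged widely in the liver. Ptp4a3 had 0.479% to 2.02%, Pmp22 0.378% to 2% and Cbr1 1.2% to 3.68%, ranges that overlap the fibroblast share, and Ppp2r2b (0% to 2.01%) rested on 1 count. Akap12 (17.8% to 36.4%), Crip2 (14.7% to 54.5%), Thbs1 (5.32% to 8.37%) and Pmaip1 (3.78% to 9.34%) stood above the fibroblast, macrophage and leukocyte shares in every mouse. Of these, Akap12 and Crip2 also stood above the mural and platelet shares, while Thbs1 and Pmaip1 overlapped the mural one, and in mouse 4 Pmaip1 (3.78%) lay below both the mural (9.89%) and the platelet share (5.02%). Akap12 and Crip2 overlapped the hepatocyte share, which was 10.9%, 19.1%, 54.7% and 42.3% in mice 1 to 4. That share lay above both genes in mice 2 and 3, below both in mouse 1 and between them in mouse 4. The peritoneal shares were 3.6% to 11.3% for Akap12, 13.7% to 25.2% for Crip2, 1.55% to 4.56% for Thbs1 and 7.11% to 19.8% for Pmaip1, where the fibroblast sum had 0.362% to 2.68%, the macrophage sum 0.393% to 3.74%, the mural sum 1.64% to 6.59% and the platelet sum 3.07% to 5.87%. The highest fibroblast and macrophage shares, and the highest shares of Akap12, Ptp4a3, Ppp2r2b, Pmp22, Cbr1 and Crip2, all belonged to mouse 1.

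**Figure D3:**
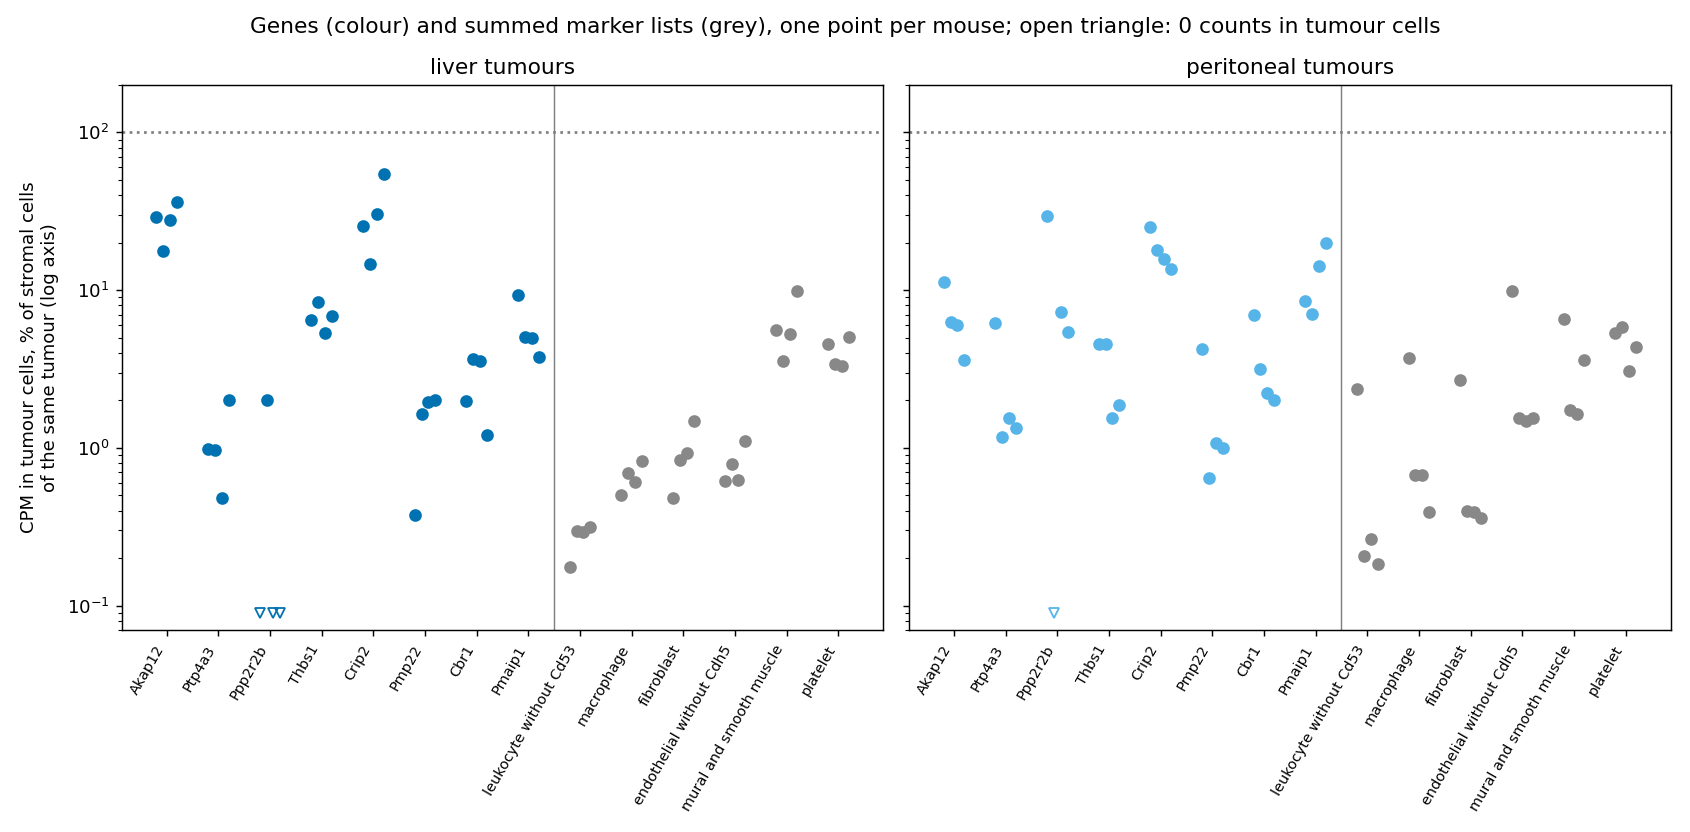
Level in tumour cells as a percent of that in stromal cells of the same tumour (y axis, log scale, CPM over CPM), for each gene in colour and for 6 summed marker lists in grey, 2 of them without Cd53 or Cdh5, with liver tumours on the left and peritoneal tumours on the right. Each point is 1 of the 4 mice and an open triangle stands for no count in tumour cells: in the liver Akap12 and Crip2 lie above all 6 sums drawn, Thbs1 and Pmaip1 overlap the mural and smooth muscle sum, and the ranges of Ptp4a3, Pmp22 and Cbr1 overlap that of the fibroblast sum. The hepatocyte sum, 10.9% to 54.7% in the liver, is not drawn and overlaps Akap12 and Crip2.

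The 2 sites were also compared in stroma, where 5 members were lower in the liver, as were 18.5% of 14755 genes, and 1 was higher, as were 14.9%. The genes lower in the liver were Akap12, Thbs1, Crip2, Pmp22 and Cbr1, and the gene that was higher was Pmaip1. Fibroblast markers moved with the first group, at 4059 to 8222 CPM in liver stroma and 53696 to 81555 CPM in peritoneal stroma, and mural and smooth muscle markers likewise, at 164 to 476 and 810 to 1362 CPM. Leukocyte markers moved the other way, at 3368 to 4126 and 2221 to 2702 CPM. Whether these cell types set the differences was not tested.

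Pmp22 had 23.8, 17, 21.4 and 14.3 CPM in liver stroma and 175, 79.2, 114 and 77.7 CPM in peritoneal stroma, a log2 fold change of -2.58 ± 0.28 (SE, edgeR adjusted p = 1.04e-04). Crip2 followed with -1.43 ± 0.24 (SE, adjusted p = 0.00145), Akap12 with -1.24 ± 0.18 (SE, adjusted p = 7.43e-04) and Thbs1 with -1.23 ± 0.21 (SE, adjusted p = 0.00181). The libraries of the 2 sites did not overlap for any of these 4 genes, and each was lower in the liver in 4 of 4 mice. Within lanes 1, 2 and 3 the difference of Pmp22 was -3.11, -2.14 and -2.42 on log2(CPM + 0.25).

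Cbr1 fell short of that separation. It was lower in liver stroma by -0.57 ± 0.16 (SE, edgeR adjusted p = 0.0229) in 3 of 4 mice, and the call was lost without the liver stroma of mouse 1 (adjusted p = 0.0624) or of mouse 4 (adjusted p = 0.0654). Pmaip1 was higher in liver stroma by 0.73 ± 0.13 (SE, adjusted p = 0.00197), in 4 of 4 mice. Ptp4a3 (0.19 ± 0.10, adjusted p = 0.189) and Ppp2r2b (-0.26 ± 0.52, adjusted p = 0.739) did not pass (SE).

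The difference between sites was then compared between tumour cells and stroma in one model. For 2 members it was called more positive in tumour cells, as for 6.79% of 15331 genes, and for none more negative. Akap12 was lower in liver than in peritoneal stroma, while its difference between tumour cells had not passed, and the 2 differences were apart by 1.89 ± 0.41 on the log2 scale (SE, edgeR adjusted p = 0.00675). The same quantity for Thbs1 was 1.19 ± 0.35 (SE, adjusted p = 0.0326). Leaving out 1 library raised the adjusted p of Thbs1 above 0.05 in 7 of 16 cases, to at most 0.0675, and that of Akap12 in none. The 7 libraries were the liver tumour cells of mouse 2, the peritoneal tumour cells of mice 3 and 4, the liver stroma of mice 1, 2 and 4 and the peritoneal stroma of mouse 3. For Pmaip1 the difference was -1.03 ± 0.46 (SE, adjusted p = 0.151), and without the liver tumour cells of mouse 1 it was -1.54 (adjusted p = 0.0104).

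**Figure D4:**
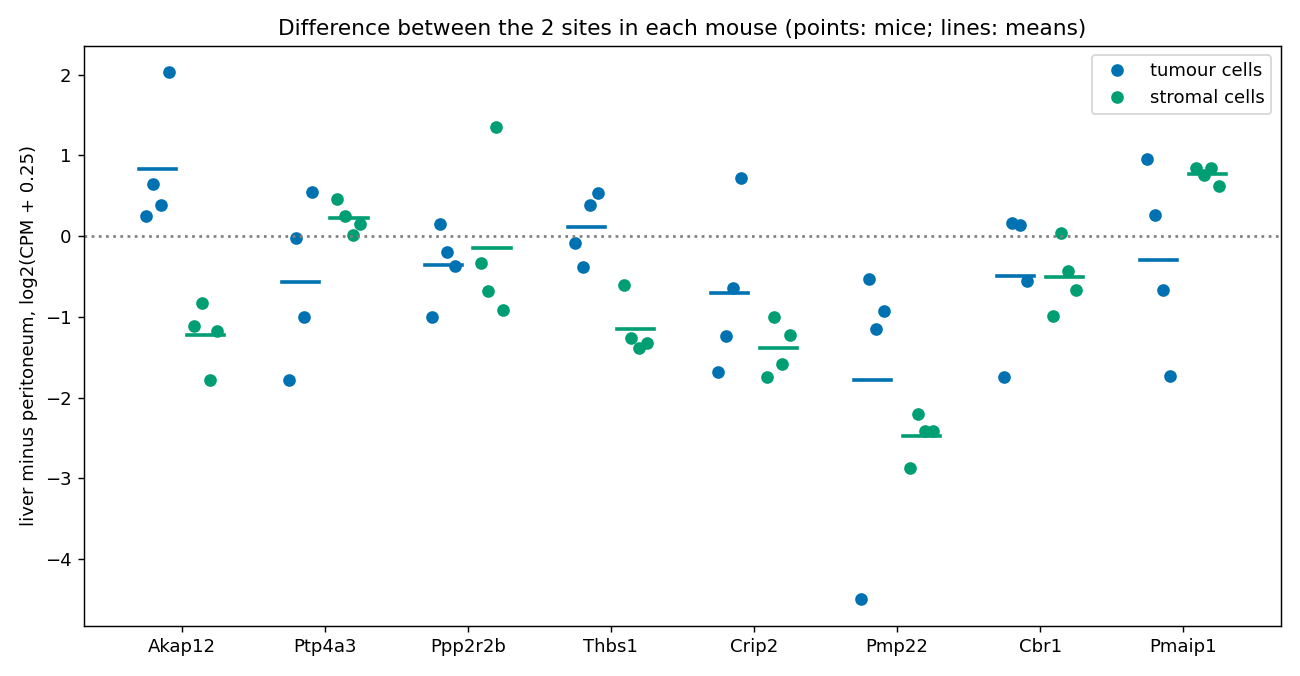
Difference between liver and peritoneum within each mouse (y axis, log2(CPM + 0.25), liver minus peritoneum) for each gene on the x axis, in tumour cells (blue) and stromal cells (green). Points are the 4 mice and lines their means: Pmp22 lies below 0 in both cell populations, Akap12 lies above 0 in tumour cells and below 0 in stroma, and the lowest tumour point of Pmp22, -4.50, is mouse 1.

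Relatives of each member were taken from lists of the same families, and their counts are given as a description. In liver tumours 38.4% of all genes were called higher and 39.4% lower than in stroma, and in peritoneal tumours 39.5% and 37.1%, the background for the counts that follow. These counts include relatives with few counts in tumour cells. Such genes passed the filter on low counts only through stroma, so only a lower call was open to them. Of the 3 Emp genes, which encode the tetraspan proteins most like Pmp22, none was lower in tumour cells than in stroma. Emp1 averaged 1321 CPM in liver tumour cells and 368 CPM in liver stroma, a log2 fold change of 1.85 ± 0.09 (SE, edgeR adjusted p = 3.76e-09), and Emp2 was higher there as well (1.23 ± 0.13, SE, adjusted p = 2.88e-06). In culture Emp1 had a mean of 1290 CPM without Ras and 1708 CPM in RasHIGH. Pmp22 and these 2 paralogues thus lay on opposite sides of the tumour and stroma comparison in the liver.

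Among 13 other PP2A subunits, 12 were tested in liver tumours against stroma, and 7 were higher, 2 lower and 3 not called. Ppp2r5a was lower (-1.26 ± 0.07, SE, edgeR adjusted p = 1.34e-08) and Ppp2r5b higher (1.10 ± 0.11, SE, adjusted p = 3.22e-06). Ppp2r2a, a B subunit of the same family as Ppp2r2b, stood at 130 CPM in liver tumour cells and 139 CPM in BMEL WT, and Ppp2r2d at 36.4 and 35.1 CPM. Of the PRL phosphatases, Ptp4a2 averaged 215 CPM in liver tumour cells and 440 CPM in liver stroma (-1.02 ± 0.09, SE, adjusted p = 4.36e-07), a smaller gap than that of Ptp4a3. Cnnm4, a membrane protein that PRL phosphatases bind, was higher by 0.46 ± 0.11 (SE), and of 5 genes of this list tested 1 was higher and 2 lower.

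In the A-kinase list, 6 of 13 genes tested were lower and 4 higher in liver tumour cells. Prkar1b, a regulatory subunit of protein kinase A, was lower by -3.70 on the log2 scale (edgeR adjusted p = 6.35e-07). It averaged 0.239 CPM in liver tumour cells and 3.14 CPM in liver stroma, so only a lower call was open to it. Akap5, another membrane anchor of protein kinase A, was lower by -3.37 ± 0.26 (SE, edgeR adjusted p = 2.38e-07), and its culture means were 24.4, 3.3 and 0.852 CPM in BMEL WT, RasLOW and RasHIGH. Of 7 BH3-only and Mcl1 genes tested, 4 were lower in liver tumour cells, among them Bik (-4.90 ± 0.61, SE) and Bcl2l11, which encodes Bim (-2.20 ± 0.18, SE). Bik averaged 0.0379 CPM in liver tumour cells and 1.16 CPM in liver stroma, so only a lower call was open to it. Mcl1, the partner bound by Noxa, was lower too (-2.13 ± 0.11, SE, adjusted p = 5.37e-09). Of the CRIP and CRP genes, 2 of 3 tested were lower, Crip1 by -7.54 ± 0.29 and Csrp2 by -1.59 ± 0.20 (SE).

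Thrombospondins and carbonyl reductases held the relatives that differed between the tumour sites. Thbs2 (-4.86 ± 0.55, SE, edgeR adjusted p = 0.00446) and Thbs4 (-6.48 ± 1.07, SE, adjusted p = 0.0178) were lower in liver than in peritoneal tumour cells, as was Cbr2 (-4.93 ± 1.04, SE, adjusted p = 0.0341). Each was also far higher in peritoneal stroma, where Thbs2 averaged 954 CPM, Thbs4 853 CPM and Cbr2 60.1 CPM, against 9.49, 7.14 and 1.98 CPM in peritoneal tumour cells. In liver tumour cells Thbs4 (0.0812 CPM) and Cbr2 (0.0622 CPM) were near the limit of detection, so only a lower call was open to them there. Their SD in peritoneal tumour cells, 7.09 CPM for Thbs4 and 2.85 CPM for Cbr2, was about as large as the mean or larger. No other relative was called between the tumour sites. Against stroma, 4 of 6 thrombospondin and receptor genes were lower and 1 higher in liver tumour cells, and 2 of 3 carbonyl reductases were lower. Cbr3 followed Cbr1: it averaged 0.116 CPM in liver tumour cells and 6.97 CPM in liver stroma (-5.78 ± 0.35, SE, adjusted p = 2.26e-08). Like Cbr1 it passed the filter only through stroma, so only a lower call was open to it.

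In peritoneal tumours the same lists gave these counts against stroma. Of the 12 PP2A subunits tested 6 were higher and 2 lower, of 13 A-kinase genes 3 were higher and 4 lower, and of 5 PRL and Cnnm genes 2 were higher and 1 lower. All 3 CRIP and CRP genes tested, 5 of 6 thrombospondin and receptor genes and 2 of 3 carbonyl reductases were lower, and none of these was higher. Of 7 BH3-only and Mcl1 genes 3 were lower and 1, Bbc3, was higher (0.89 ± 0.12, SE, edgeR adjusted p = 1.85e-04), and of the 3 Emp genes 1 was higher, Emp1 (1.03 ± 0.12, SE, adjusted p = 7.33e-05). Bik, Prkar1b and Cbr3 averaged 0.0203, 0.302 and 0.252 CPM in peritoneal tumour cells, so only a lower call was open to them here too.

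Across the 16 sorted libraries the members varied together, with Pearson's r of log2(CPM + 0.25) from 0.72 for Crip2 and Pmaip1 to 0.98 for Ptp4a3 and Cbr1, values that largely restate the gap between tumour cells and stroma. The genes whose pattern over these libraries was most like each member were Dcn for Pmp22 (r = 0.994), Wt1, Stac2 and Slc9a4 for Thbs1 (0.990 to 0.992), Tnfrsf11a, Hacd4 and Kcnk6 for Ptp4a3 (each 0.997), Bcat1 for Crip2 (0.972), Hoxb3 for Akap12 (0.977), Mcoln2 for Cbr1 (0.998), Nrd1 for Pmaip1 (0.981) and Prr15 for Ppp2r2b (0.966). Tumour cells and stroma of 1 tumour come from the same mouse and, by the labels, from the same lane, so the 16 points are not independent.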

How the data were processed

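The authors made mRNA libraries from cultured and sorted cells. They deposited 1 table of raw read counts, whole numbers per gene and library without normalization. The paper's methods name TopHat2 and mm9, while the submitters' processing notes list FastQC, Bowtie 0.12.2, mm8 and mm10, so the build behind the counts is uncertain. The counting program, its strand setting and the annotation are not given in the sources used here. Ptp4a3 overlaps a U4 RNA and Ppp2r2b overlaps 4933407I08Rik on mm9, and their reads may be shared. No 2 libraries had identical counts. Nothing in the labels says that cultures of a group were independent, so their spread may be technical.

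CPM was computed with TMM factors over 25 libraries. Each test used the libraries it compares, after the paper's comparison of pairs, with edgeR 4.0.16 and limma 3.58.1 in R 4.3.3: filterByExpr (minimum count 10), TMM, the quasi-likelihood F-test and Benjamini-Hochberg adjustment over all genes tested. The difference between sites in tumour cells against that in stroma was an interaction term over 16 libraries. A gene was called at an adjusted p-value under 0.05. SE is the absolute log2 fold change over the square root of F. Low values were placed on the culture scale with a pseudocount of 0.25. Exons per length came from GENCODE M1 on mm9, and promoter windows from RefSeq on GRCm38.p6. Steps were tested on simulated data.

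Mouse numbers in the labels name the animal, so they pair the samples. The correlation of deviations from the group means of same-numbered libraries lay between -0.22 and 0.03 for the tumour sites, between 0.12 and 0.29 and between 0.08 and 0.29 for tumour cells and stroma of liver and peritoneum, and between 0 and 0.29 for the stromal sites. The mouse was an alternative block. Other alternatives were DESeq2 1.42.0, RLE factors, no filter, the study's threshold, the lane as a term, one fit over all libraries, other pseudocounts and each library left out. The genes named are the 8 members, at most 4 relatives per list (the 2 with the largest changes among those called, or the closest paralogue), and the genes most like each member in Pearson's r; Mcl1, Bbc3 and the culture values of Akap5 and Emp1 were taken up after their values had been seen. The members and lists were chosen with earlier results of these data known.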

Additional observations from a re-analysis of the deposited data

Results flagged for a closer look

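Dixon's ratio was taken in 32 groups, each 1 gene in 1 set of 4 sorted libraries. At its 95% critical value, which chance passes in about 1 in 20 groups, 1 library lay far from the other 3 for 4 genes. For 3 of them it was the same library, so these are not separate events. In the peritoneal tumour cells of mouse 1, Ptp4a3 had 2.55 CPM against 0.54 to 0.667 CPM in the others, Pmp22 7.43 CPM against 0.513 to 1.24 CPM and Cbr1 1.12 CPM against 0.257 to 0.324 CPM. The same library held 1440 CPM of fibroblast and 227 CPM of macrophage markers, the highest of the 8 tumour cell libraries, and the part of those cells in the 3 values was not tested. In liver tumour cells Ppp2r2b had 0.0279 CPM in mouse 2, which is 1 count, and 0 in the others, a case in which the ratio is fixed by the single count.

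The difference between liver and peritoneum was not the same in tumour cells and in stroma for 2 members, by the interaction term of edgeR. It was more positive in tumour cells by 1.89 on the log2 scale for Akap12 (adjusted p = 0.00675) and by 1.19 for Thbs1 (adjusted p = 0.0326).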

How the results depend on the processing

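The call that 8 of 8 members are lower in tumour cells than in stroma held at both sites under DESeq2, RLE factors, no filter, the study's threshold, the lane, one fit over all libraries and each library left out. With the mouse as a block no count of called members changed, 0 and 6 members between the sites in tumour cells and in stroma, 8 at each site against stroma and 2 for the interaction. Between the tumour sites 1 member was called in place of 0 by the study's threshold, by DESeq2 (Pmp22, adjusted p = 0.0017) and in one fit over all 25 libraries (Pmp22, adjusted p = 0.0219); over the libraries left out the count lay between 0 and 1. For the interaction the count was 1 in place of 2 in one fit over all libraries (Thbs1, adjusted p = 0.0878), and between 1 and 3 over the libraries left out. Between the stromal sites it was 4, without Cbr1 and Pmaip1, in one fit over all libraries and by the study's threshold, and 5 to 6 over the libraries left out. The median position lay between 0.98 and 1.03 in liver and between 0.89 and 0.99 in peritoneal tumour cells over the libraries left out. The cause of these changes was not tested.

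Directions that turned were those of values that had not passed. Between the tumour sites Thbs1 lay between -0.13 and 0.31 and went to -0.03, -0.07 and -0.13 without the liver library of mouse 2 or the peritoneal ones of mice 3 and 4, and Pmaip1 (between -0.73 and 0.07) to 0.07 without the last. Ppp2r2b between the stromal sites (between -0.58 and 0.21) went to 0.21 without the peritoneal library of mouse 2. In the interaction Pmp22 (from -1.07) went to 0.84 and Cbr1 (from -0.78) to 0.33 without the peritoneal tumour cells of mouse 1.

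With a pseudocount of 1 or 0.05 the position of Pmp22 in liver tumour cells was 1.34 or 1.64, and that of Ppp2r2b 1.04 or 1.25, since both rest on few counts. Depth limits Ppp2r2b, Cbr1, Ptp4a3 and Pmp22 in tumour cells.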

Other observations

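Erk target genes gave these values. For Dusp6 (480 ± 71.8 CPM in BMEL WT and 536 ± 120 CPM in RasHIGH, SD, n = 3) and Dusp4 (77.8 ± 7.83 and 136 ± 70.7 CPM, SD, n = 3) the spreads of the cultures overlapped. Those of Spry2 overlapped as well (102 ± 32.3 and 163 ± 38.9 CPM, SD, n = 3), and those of Etv4 and Etv5 did not. As the list was mixed in this, levels and not positions on the culture scale are given for it. Dusp6 averaged 406 CPM in liver and 443 CPM in peritoneal tumour cells. Etv4, an Ets factor, averaged 42.7 CPM in BMEL WT, 129 CPM in RasHIGH, 124 CPM in liver and 144 CPM in peritoneal tumour cells. In the same order Etv5 averaged 16.7, 36.6, 26.5 and 32.9 CPM, and Spry2 102, 163, 199 and 227 CPM. Etv5 averaged 37.1 CPM in RasLOW, so its means did not separate RasLOW from RasHIGH. Phlda1 moved the other way in culture, with 355 CPM without Ras and 211 CPM in RasHIGH, and stood at 190 CPM in liver tumour cells.

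Of 6 genes that rose gradually in culture, 4 lay past the RasHIGH mean at each site, with median positions of 1.06 and 1.09. The RasHIGH levels belong to the values that chose these genes. The share of all genes past that mean was not counted, so this is a description. Dynap averaged 0.373 CPM without Ras, 91.4 ± 8.91 CPM in RasHIGH (SD, n = 3) and 470 ± 16.5 CPM in liver tumour cells (SD, n = 4). Itgb7, which encodes integrin beta-7, stood at 148 ± 31 CPM in RasHIGH and 10.3 ± 2.35 CPM in liver tumour cells (SD), below RasLOW at 47 ± 27.8 CPM.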
